A study of Mus musculus with 12 samples.

Results

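Heat shock proteins and small chaperones were followed in the triceps brachii, a muscle of the upper forelimb, of active and inactive mice with normal or reduced myostatin. The genes were chosen by symbol, with earlier results of these data known. Of 10 named symbols (Hspa1a, Hspa1b, Hspa8, Hsp90aa1, Hsph1, Dnajb1, Hspb1, Hspb6, Hspb7 and Cryab), 9 were among the 10187 genes of the table, and Hspa1b was not analysed here. Of these 9, 7 had a mean of at least 10 normalized reads and were tested with the other 7240 genes that passed that filter, while Hspa1a and Dnajb1 fell below it.

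The 12 male C57/BL6 mice fell into 4 groups of 3. Wild-type mice were either inactive (IW, labelled sedentary control) or active (AW), and myostatin-reduced mice were either inactive (IM) or active (AM). The myostatin-reduced mice carried myostatin genes with floxed exon 3, which Cre recombinase deletes, and all 12 mice, controls included, received chow with 0.025% tamoxifen for a total of 6 weeks between 4 and 6 months of age. The promoter that drives Cre, and whether the controls carried Cre, were not given in the sources used here. From 6 months of age the active mice had running wheels for 12 weeks and were moved to individual cages, so that wheel running and single housing cannot be told apart.

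Heat shock proteins are chaperones, which keep other proteins folded, refold damaged ones or hold them until they can be repaired or degraded. The HSP70 proteins (Hspa genes) work in cycles of ATP use that DNAJ proteins start and HSP110 proteins such as Hsph1 reset, HSP90 takes over partly folded clients, and the small heat shock proteins (Hspb genes and Cryab) bind unfolding proteins without ATP. Striated muscle holds large amounts of small heat shock proteins, which sit on the Z-disc and on filaments such as desmin, and heat shock factor 1 switches on the inducible chaperone genes through heat shock elements in their promoters.

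Promoters were looked up in RefSeq (GRCm38.p6) because heat shock elements are the usual mark of the inducible genes. Of the 10 genes 7 had an entry, namely Dnajb1, Hspa1a, Hspa1b, Hspb1, Hspb6, Hspb7 and Hsph1. The 250 bases before each start were searched for the paired units GAANNTTC and TTCNNGAA, each of which reads the same on both strands. The 7 genes had 10 listed promoters, 1 per start. At least 1 such pair stood in 6 of the 10 (Hspa1a, Hspa1b, Hspb1, 1 of 2 for Hspb6 and both for Hsph1) and in 12.84% of all 32851 listed RefSeq mouse promoters. The promoters of Hspa1a and Hspa1b are near-identical, and those of Hsph1 overlap and share 1 pair. Dnajb1 and Hspb7 held none in this window, and none of the 7 held the longer 3-unit forms GAANNTTCNNGAA or TTCNNGAANNTTC. The stretches below are shown because they set the genes with a paired unit (Hspa1a, Hspb1, Hspb6, Hsph1) beside a small heat shock protein gene without one (Hspb7). They are 85 bases that end at base -41 before the start, or for Hsph1 28 bases that end at -16, and capitals mark the paired units.
Hspa1a, chr17:34972197-34972281, minus strand: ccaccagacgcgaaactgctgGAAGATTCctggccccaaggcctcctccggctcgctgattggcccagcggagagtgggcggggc
Hspb1, chr5:135887794-135887878, plus strand: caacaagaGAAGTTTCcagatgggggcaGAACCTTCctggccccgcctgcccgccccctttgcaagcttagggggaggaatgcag
Hspb6, chr7:30553176-30553260, plus strand: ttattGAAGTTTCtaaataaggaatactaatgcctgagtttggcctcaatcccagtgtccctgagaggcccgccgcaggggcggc
Hspb7, chr4:141420654-141420738, plus strand: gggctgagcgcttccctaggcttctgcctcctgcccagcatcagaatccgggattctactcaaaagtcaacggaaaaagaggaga
Hsph1, chr5:149636352-149636379, minus strand: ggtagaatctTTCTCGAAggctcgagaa
The pair begins at base -104 in Hspa1a, at -117 and again at -97 in Hspb1, at -120 in Hspb6 and at -33 in Hsph1. The Hspb6 stretch belongs to the second of its listed starts, and the first had no pair. A match is a string of letters and not a shown binding site. The Hspa1a stretch is also that of Hspa1b, and over the 250 upstream bases the 2 genes were 98.8% identical.

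The targeted gene followed its labels in every library. Mstn, which encodes myostatin, lay between 79.7 and 138 normalized reads in the 6 wild-type mice and between 8.70 and 21.6 in the 6 myostatin-reduced mice. Depth, estimated from the value of a single read, was 9023806 to 12184478 reads per mouse. The markers of slow fibres, such as the slow myosin gene Myh7, varied within groups, and their sum over 11 genes (11 of 11 in the table, none at 0) was 142 to 1458 in IW, 96.0 to 145 in IM, 207 to 1899 in AW and 167 to 1436 in AM. The sum over 7 endothelial markers was 269 to 343 in IW, 235 to 242 in IM, 272 to 459 in AW and 306 to 514 in AM. All 7 had positive activity differences, and 6 were called higher (FDR-adjusted P-value under 0.05, limma), where 7.99% of tested genes were. In whole muscle a change in the share of a cell or fibre type and a change in RNA per cell cannot be told apart.

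The 9 genes together made up 0.157% to 0.304% of the summed values of a mouse. Their sum was lowest in the IM mice, at 1669.9 to 1786, against 1948 to 2464 in IW, 2119 to 2532 in AW and 2153 to 2856 in AM. Hspb6 (mean 666 in IM) and Cryab (436) made up most of the IM sum. The mean of Hsph1 rose from 147 in IW to 165 in IM, and those of Hsp90aa1 (15.4 and 15.4) and Hspa8 (250 and 246) were close. Levels were compared between genes per kilobase of the longest annotated transcript (GENCODE, mm9), as a mean ± SD over all 12 mice. Hspb6 (625 ± 118) and Cryab (502 ± 119.9) led and overlapped each other. Hspa8 (106 ± 7.58) and Hspb7 (93.4 ± 39.5) followed, at levels that overlapped each other and lay below those of Cryab in every mouse. Hsph1 (44.99 ± 6.71) and Hspb1 (40.5 ± 4.66) came next and overlapped, and the lowest Hspb7 mouse (44.2) lay below the highest Hsph1 mouse (59.1). Hsp90aa1 (5.17 ± 0.893), Dnajb1 (2.61 ± 0.588) and the stress-inducible Hspa1a (1.03 ± 0.327) were lowest, each with a range apart from its neighbours in this order.

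**Figure D1:**
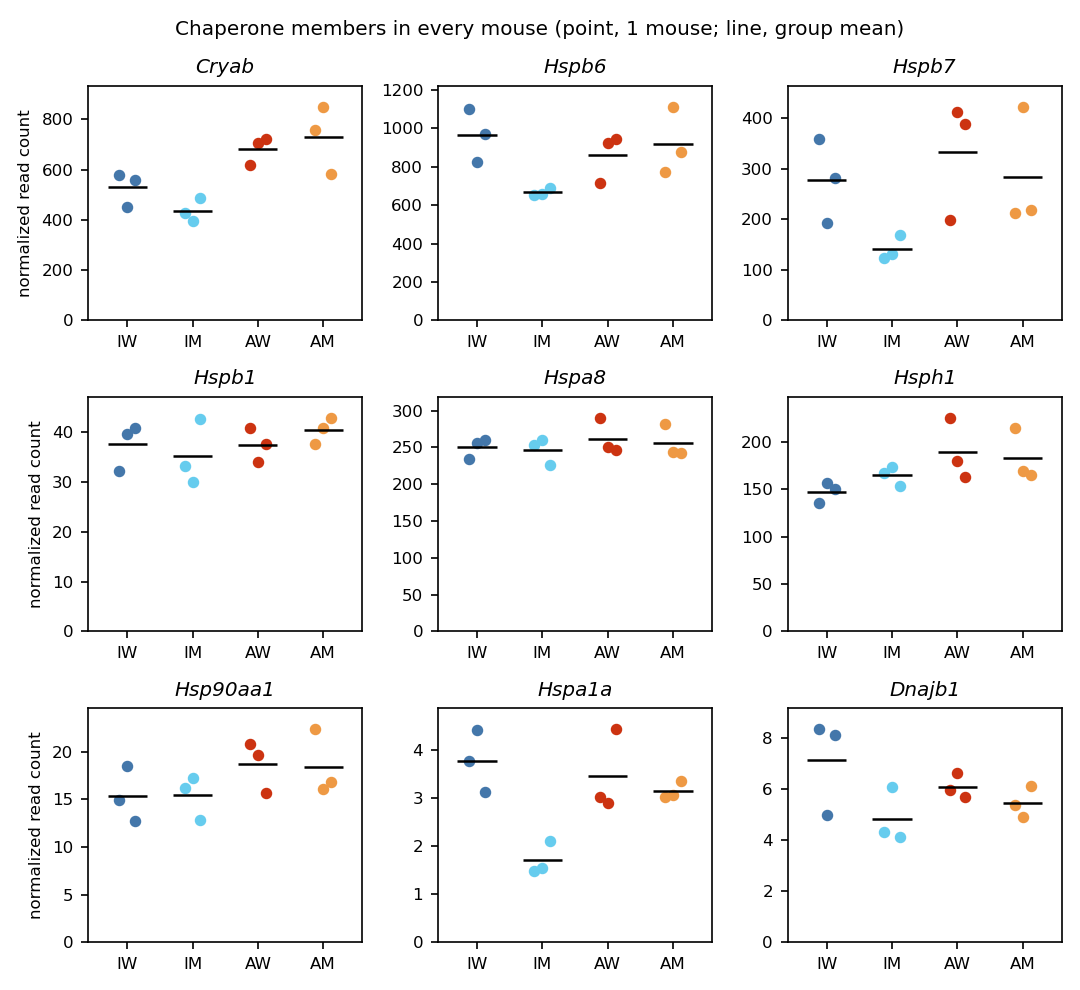
Normalized read count (vertical axis, from 0) of each of the 9 genes in every mouse, by group (IW, IM, AW, AM; 3 mice each); points are mice and lines are group means. Cryab is higher in all 6 active mice (584 to 848) than in all 6 inactive mice (395 to 577), and the 3 IM mice are the lowest for Hspb6, Hspb7 and Hspa1a.

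Cryab encodes alpha B-crystallin, the small heat shock protein that shields desmin and the Z-disc. Cryab lies on mouse chromosome 9 (mm9, chr9:50560863-50564738, plus strand). The normalized read count of Cryab was 577, 453 and 559 in the IW mice, 427, 395 and 487 in the IM mice, 618, 706 and 722 in the AW mice, and 759, 848 and 584 in the AM mice. Every active mouse was above every inactive mouse, a separation in this direction that 3.09% of the 7247 tested genes showed. The group means ± SD were 529.7 ± 67.3 (IW), 436 ± 46.4 (IM), 682 ± 55.7 (AW) and 730.2 ± 135 (AM; n = 3 each).

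Cryab was over-expressed in active relative to inactive mice by a log2(fold change) of 0.55 (SE 0.0963, FDR-adjusted P-value = 0.00379, limma). Among myostatin-reduced mice the activity difference of Cryab was 0.73 (SE 0.136, FDR-adjusted P-value = 0.0101, limma), a ratio of group means of 1.67. Among wild-type mice the log2 difference of Cryab was 0.37 (SE 0.136, FDR-adjusted P-value = 0.222, limma), a ratio of 1.29, although all 3 AW mice lay above all 3 IW mice. The activity differences of the 2 genotypes were themselves not separated, since the Cryab interaction was 0.36 (SE 0.193, FDR-adjusted P-value = 0.890, limma). The AM-IM call of Cryab was lost without the second IM mouse (FDR-adjusted P-value = 0.0512, limma) or the second AM mouse (0.0550), whereas the call over all active and inactive mice passed under each of the 22 other settings and omissions run. The endothelial markers moved with activity as well, by a median of 0.49. All 11 slow fibre markers had positive activity differences, with a median of 1.80, and 2 of them were called. Of 2 tested adipocyte markers, both positive, 1 was called (Fabp4, 0.64, FDR-adjusted P-value = 0.00331, limma). Of 11 fast fibre markers (11 of 11 in the table, none at 0), whose sum was 189599 to 219163 in IW, 230616 to 239931 in IM, 159738 to 193664 in AW and 167501 to 211494 in AM, 2 were called higher with activity and 3 lower. Of all tested genes 7.99% were called higher and 6.51% lower. The fast myosin genes Myh2 and Myh1 rose by 2.04 (FDR-adjusted P-value = 0.0251, limma) and 1.51 (0.00190), whereas the fast myosin gene Myh4, Actn3 and the calcium pump gene Atp2a1 differed by -0.57 (0.0127), -0.49 (0.0186) and -0.30 (0.0384). The part of the endothelial, adipocyte and fast fibre markers in the Cryab result was not tested, and a slow-fibre score is taken up below.

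Against this, 14.5% of the 7247 tested genes were called for activity, and Cryab was 1 of 7 tested chaperones called, a share near that background. All 7 tested chaperones had positive activity differences, with a median of 0.24 where the median of all genes was -0.02. Activity was called between AM and IM in 7.84% of all genes and in 1 of the 7 (Cryab), and between AW and IW in 0.0276% of all genes and in none of the 7.

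Cryab and Hspb2 lie head to head, 403 bases apart in the mm9 annotation. Hspb2 encodes another small heat shock protein of muscle. Hspb2 read 33.6 to 44.8 in the inactive mice and 33.9 to 42.4 in the active mice, and its activity difference was -0.01 (SE 0.0700, FDR-adjusted P-value = 0.921, limma). The ranges of active and inactive mice were thus apart for Cryab and overlapped for Hspb2, and the difference between the neighbours was not tested.

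Hspb6 and Hspb7, small heat shock proteins of skeletal and heart muscle, showed another arrangement, with the IM mice lowest. Hspb6, the most abundant of the 9 per kilobase, had a normalized read count of 1099.8, 824 and 972 in IW, 654, 656 and 688 in IM, 717, 921 and 941 in AW, and 774, 1108 and 874 in AM. All 3 IM mice were below every mouse of the other groups. The means of Hspb6 were 965 ± 138 (IW), 666 ± 19.0 (IM), 859.8 ± 124 (AW) and 919 ± 172 (AM), so that the IM mice also had the smallest SD.

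Hspb7, which binds actin filaments and is needed in heart muscle, had a normalized read count of 358, 192 and 282 in IW, 122, 131 and 169 in IM, 199, 411 and 388 in AW, and 212, 421 and 219 in AM. The highest mouse held 3.44 times the lowest, the widest range of the 9 genes. Again all 3 IM mice were lowest, and the AW and AM mice overlapped. The means were 277 ± 83.2, 141 ± 25.1, 333 ± 117 and 284 ± 119 in the same order.

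None of these differences passed the test. Relative to IW, where IM mice differed in 2.51% of all genes by the same test, they differed by -0.52 for Hspb6 (SE 0.142, FDR-adjusted P-value = 0.0764, limma) and by -0.94 for Hspb7 (SE 0.315, FDR-adjusted P-value = 0.143, limma). Relative to IM, AM mice differed by 0.45 for Hspb6 (FDR-adjusted P-value = 0.0703, limma) and by 0.94 for Hspb7 (0.0828). The main effect of activity was 0.14 for Hspb6 (SE 0.1001, FDR-adjusted P-value = 0.369, limma) and 0.59 for Hspb7 (SE 0.223, FDR-adjusted P-value = 0.0957, limma), and that of genotype was -0.22 for Hspb6 (0.222) and -0.59 for Hspb7 (0.143). The Hspb6 activity difference turned to -0.03 with the slow-fibre score as a covariate. With the first AW mouse left out Hspb7 was called for activity (0.76, FDR-adjusted P-value = 0.0182, limma) and for genotype (-0.75, 0.0382), and the latter also without the second AM mouse (-0.75, 0.0489). Leaving out the first AW or the first AM mouse also brought the AM-IM differences of Hspb6 and Hspb7 past the threshold, and leaving out the first AW or the second AM mouse did so for the IM-IW difference of Hspb6.

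Groups of 3 often do not overlap in this table. The IM mice were all below the IW mice in 12.7% of the tested genes, against Hspb6, Hspb7 and Hspa1a of the 9 chaperones. The AM mice were all above the IM mice in 14.5% of tested genes, and here in Hspa1a, Hspb6, Hspb7 and Cryab. The AW mice were all above the IW mice in 9.09% of tested genes and for Hsph1 and Cryab, and the AM and AW mice, apart in 15.2% of genes, overlapped for all 9. These comparisons share groups, so the 3 genes below IW and the 4 above IM rest on the same IM mice. The share of all genes in which the 3 IM mice lie below the 9 others was not counted.

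Hspb1 encodes the small heat shock protein HSP25 of mice, found in most cell types. Its normalized read count was 32.3, 39.6 and 40.9 in IW, 33.3, 29.9 and 42.7 in IM, 40.8, 34.0 and 37.5 in AW, and 37.5, 40.8 and 42.8 in AM, and all 4 groups overlapped. The activity difference was 0.10 (SE 0.0895, FDR-adjusted P-value = 0.480, limma) and the genotype difference 0.01 (SE 0.0895, FDR-adjusted P-value = 0.979, limma). Of the small heat shock proteins outside the 9, Hspb2, Hspb3 and Hspb8 were tested and none was called. Hspb8, a partner of the co-chaperone Bag3 in clearing damaged filament proteins, had its highest values in IM (631, 609 and 819, against 415, 555 and 517 in IW), with a genotype difference of 0.33 (SE 0.104, FDR-adjusted P-value = 0.0862, limma), which was called without the first AW or the second AM mouse.

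**Figure D2:**
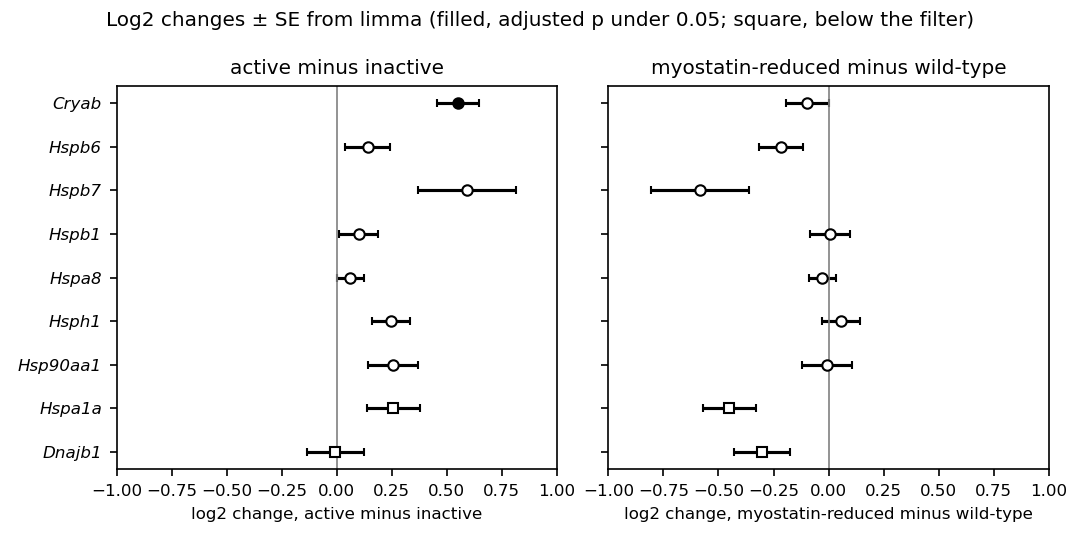
Log2 changes (horizontal axes) with standard errors for active minus inactive (left) and myostatin-reduced minus wild-type mice (right), from limma on 12 mice; filled points have an FDR-adjusted P-value under 0.05, and squares are the 2 genes below the filter. Cryab at 0.55 for activity is the only filled point, and for genotype Hspb7 (-0.59) and Hspa1a (-0.45) lie farthest from 0.

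Hspa8, the HSC70 protein of every cell, had a normalized read count of 234, 256 and 259.8 in IW, 253, 259.6 and 226 in IM, 289.6, 250.5 and 246 in AW, and 282, 244 and 242 in AM. Its highest mouse was 1.28 times its lowest, the narrowest range of the 9 genes, and its activity difference was 0.06 (SE 0.0619, FDR-adjusted P-value = 0.535, limma). Reads from processed copies of Hspa8 elsewhere in the genome could have been split by the counting.

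Hsph1 encodes HSP110, the nucleotide exchange factor of HSP70. Its normalized read count was 135, 156 and 151 in IW, 167, 173 and 154 in IM, 225, 179.6 and 163 in AW, and 214, 169 and 165 in AM. All 3 AW mice were above all 3 IW mice, the IM mice overlapped both, and the highest mouse of each active group carried the number 1. The activity difference was 0.24 (SE 0.0862, FDR-adjusted P-value = 0.0750, limma), and it passed under quantile normalization (0.28, FDR-adjusted P-value = 0.0433, limma).

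Hsp90aa1, the inducible HSP90 of the cytosol that muscle uses to fold myosin, had a normalized read count of 14.9, 18.45 and 12.7 in IW, 16.2, 17.2 and 12.9 in IM, 20.8, 19.6 and 15.7 in AW, and 22.3, 16.1 and 16.8 in AM. All groups overlapped, with an activity difference of 0.26 (SE 0.115, FDR-adjusted P-value = 0.157, limma) and a genotype difference of -0.01 (SE 0.115, FDR-adjusted P-value = 0.980, limma). These values rest on 122 to 266 estimated reads per mouse.

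Hspa1a and Dnajb1, the HSP70 and DNAJ protein that cells make on heat or other stress, were at the low end. They were fitted with no filter on low values, over all 10187 genes. Hspa1a had a normalized read count of 3.77, 4.43 and 3.13 in IW, 1.48, 1.55 and 2.11 in IM, 3.03, 2.91 and 4.44 in AW, and 3.02, 3.08 and 3.37 in AM. The 3 IM mice were below each of the 9 others, and the other groups overlapped. These values rest on 14 to 56 estimated reads per mouse.

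Relative to IW, Hspa1a was under-expressed in IM mice by a log2(fold change) of -0.81 (SE 0.172, FDR-adjusted P-value = 0.0332, limma), with a ratio of means of 0.454, where 1.91% of all genes were called without the filter. The genotype effect of Hspa1a over all mice was -0.45 (SE 0.121, FDR-adjusted P-value = 0.0546, limma), where 4.22% of all genes were called without the filter. AM mice differed from IM by 0.62 (FDR-adjusted P-value = 0.0516, limma), where 5.74% were called, and from AW by -0.09 (0.888). The IM-IW call of Hspa1a was lost whenever 1 of the 6 IW and IM mice was left out (FDR-adjusted P-values up to 0.137, limma), and also under quantile normalization (0.0536), with the slow-fibre score (0.0602) and with the replicate number as a block (0.0505). Hspa1a and Hspa1b are 99.58% identical over 1926 coding bases and lie 9960 bases apart, so that reads of either gene cannot be assigned with certainty.

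Dnajb1 had a normalized read count of 8.36, 4.98 and 8.14 in IW, 4.32, 6.09 and 4.13 in IM, 5.97, 6.64 and 5.71 in AW, and 5.38, 4.93 and 6.15 in AM. The highest values were those of 2 IW mice and the lowest those of 2 IM mice, and all groups overlapped. The genotype difference was -0.30 (SE 0.127, FDR-adjusted P-value = 0.213, limma) and the activity difference -0.01 (SE 0.127, FDR-adjusted P-value = 0.982, limma). The summed level of the immediate early genes, which respond to handling and stress, was also highest in IW (317 to 328, with 8 of 9 named genes in the table, none at 0), against 231 to 272 in IM, 218 to 263 in AW and 217 to 263 in AM. Nr4a1 and Jun made up most of this sum. The mean of Nr4a1 was highest in IW (161) and that of Jun in IM (81.5, against 79.6 in IW). The part of the immediate early genes in the Hspa1a and Dnajb1 values was not tested.

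No chaperone of the 9 was called for genotype, where 5.78% of all tested genes were. None was called for the interaction of activity and genotype either, where limma called 0% of all genes and 4.1% had an unadjusted P-value under 0.05. Of the 9, 2 were under that unadjusted level for the interaction. Hspb6 had an interaction of 0.61 (SE 0.2001, unadjusted P-value = 0.00928, FDR-adjusted P-value = 0.890, limma) and Hspa1a one of 0.73 (SE 0.243, unadjusted P-value = 0.0101, FDR-adjusted P-value = 0.900, limma). Between AM and AW mice, where 0.207% of all genes were called, the largest difference of the 7 tested was that of Hspb7 (-0.23, FDR-adjusted P-value = 0.808, limma).

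Hspb7, Cryab and Hspb6 followed the slow-fibre markers from mouse to mouse, and Hspb1, the other small heat shock protein of the 9, had a Pearson r of -0.159 with them (permutation P-value = 0.615, adjusted 0.922). A slow-fibre score was taken as the mean log2 deviation over the 11 slow markers, none of which is among the 9 genes, and was correlated with each of the 9 over the 12 mice. Hspb7 had a Pearson r of 0.898 (permutation P-value = 0.00017, adjusted over 9 relations 0.00153) and a Spearman rho of 0.874 (permutation P-value = 0.00053, adjusted 0.00477). Cryab had an r of 0.815 (permutation P-value = 0.00193, adjusted 0.00868) and a rho of 0.769 (0.00453, adjusted 0.0204). Hspb6 had an r of 0.755 (permutation P-value = 0.00757, adjusted 0.0227) and a rho of 0.713 (0.0118, adjusted 0.0355).

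Without the 2 mice farthest from the median score (AW mice 2 and 3) the r was 0.850 for Hspb7, 0.781 for Cryab and 0.773 for Hspb6. With each group's mean removed, r was 0.842 for Hspb7, 0.819 for Cryab and 0.765 for Hspb6, so that the relation was present within groups. Score and gene were read from the same libraries. The sum of the 7 endothelial markers was also lowest in the IM mice (235 to 242). Within AW and within AM, each of these markers was lowest in the first mouse, as were Hspb6 and Hspb7. Within AM, all were highest in the second mouse. Within IW, Hspb6 and Hspb7 were highest in the first mouse, as were Kdr and Tek, but not Pecam1, Cdh5, Tie1, Emcn or Esam. The relation of Hspb6, Hspb7 and Cryab to the endothelial markers was not tested. Of the 7236 tested genes that are not slow markers, 0.428% had an r at least as high as that of Hspb7, 2.71% as that of Cryab and 5.15% as that of Hspb6. With negative r counted as well, 1.3%, 6.66% and 12.9% had an r at least as large in size. The other 6 genes gave adjusted Pearson P-values of at least 0.259 by permutation. Groups of 3 are too small for an r of their own.

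With the slow-fibre score as a covariate, Cryab kept a called activity difference (0.37, FDR-adjusted P-value = 0.0130, limma) and a called AM-IM difference (0.50, 0.0298). Hspb7 then had an activity difference of 0.15 (FDR-adjusted P-value = 0.624, limma) in place of 0.59. Over all genes, 343 were called for activity with the covariate and 1051 without it. All 11 markers of the score had positive activity differences (median 1.80), so the score overlaps with activity.

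**Figure D3:**
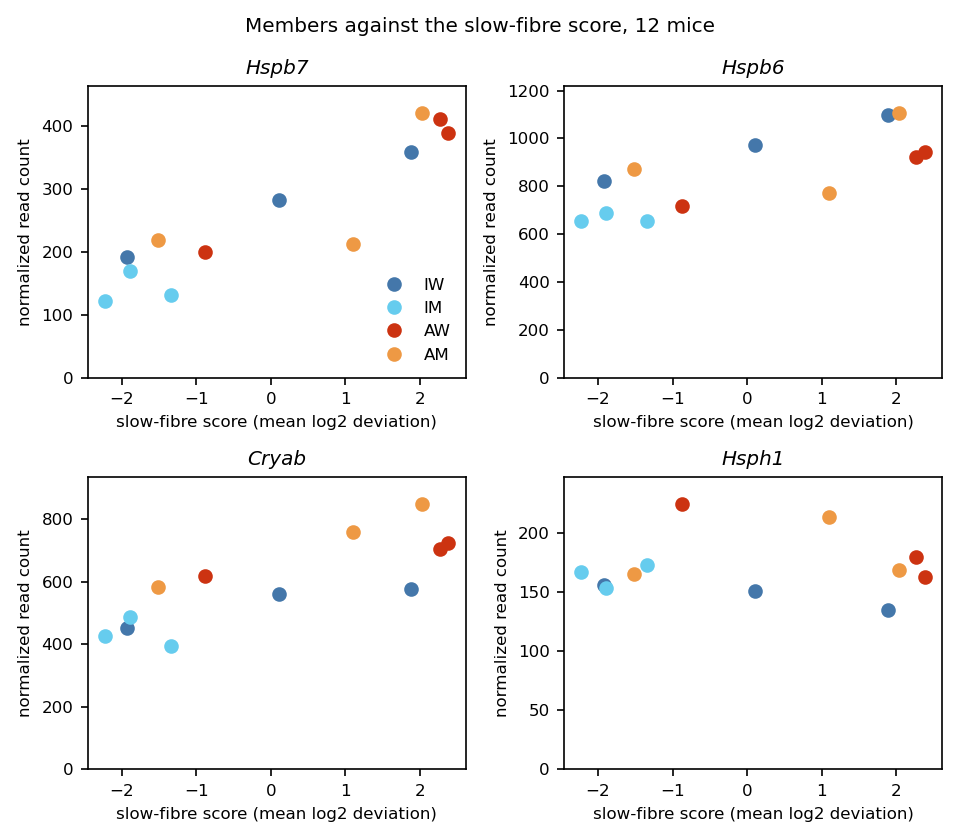
Normalized read counts (vertical axes, from 0) of Hspb7, Hspb6, Cryab and Hsph1 against the slow-fibre score (horizontal axis, mean log2 deviation over 11 markers) in 12 mice, coloured by group. Hspb7, Hspb6 and Cryab are higher at higher scores (r = 0.898, 0.755 and 0.815), whereas Hsph1 has r = -0.01.

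Of the 36 pairs of the 9 genes compared over the 12 mice, 4 had an adjusted Pearson P-value under 0.05 by permutation, and none of these held Hspa1a, Dnajb1 or Hspb1. Hspb6 and Hspb7 had a Pearson r of 0.912 (permutation P-value = 0.00015, adjusted over 36 pairs 0.0054), a Spearman rho of 0.916 (0.00013, adjusted 0.00468) and an r of 0.868 without the 2 mice farthest from the median of Hspb6. Hspb7 and Cryab had an r of 0.803 (permutation P-value = 0.00227, adjusted 0.0204), a rho of 0.790 (0.00346, adjusted 0.0415) and an r of 0.715 without the 2 farthest mice. Hsp90aa1 and Hsph1 had an r of 0.803 (permutation P-value = 0.00203, adjusted 0.0204), a rho of 0.839 (0.00104, adjusted 0.0187) and an r of 0.727 without the 2 farthest mice.

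Hspa8 and Hsph1 had an r of 0.819 (permutation P-value = 0.00225, adjusted 0.0204), but a rho of 0.559 (0.0640, adjusted 0.329) and an r of 0.412 without the 2 farthest mice. Their relation was thus weaker by rank and without those 2 mice. After group means were removed, as a description, the Hspa8, Hsph1 and Hsp90aa1 deviations had r between 0.689 and 0.950 with each other. With those of Hspb6 and Hspb7 they had r between -0.648 and -0.819. None of these deviations was correlated again without the farthest mice. In the AW and AM groups the mouse numbered 1 was highest for Hspa8, Hsph1 and Hsp90aa1 and lowest for Hspb6 and Hspb7.

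**Figure D4:**
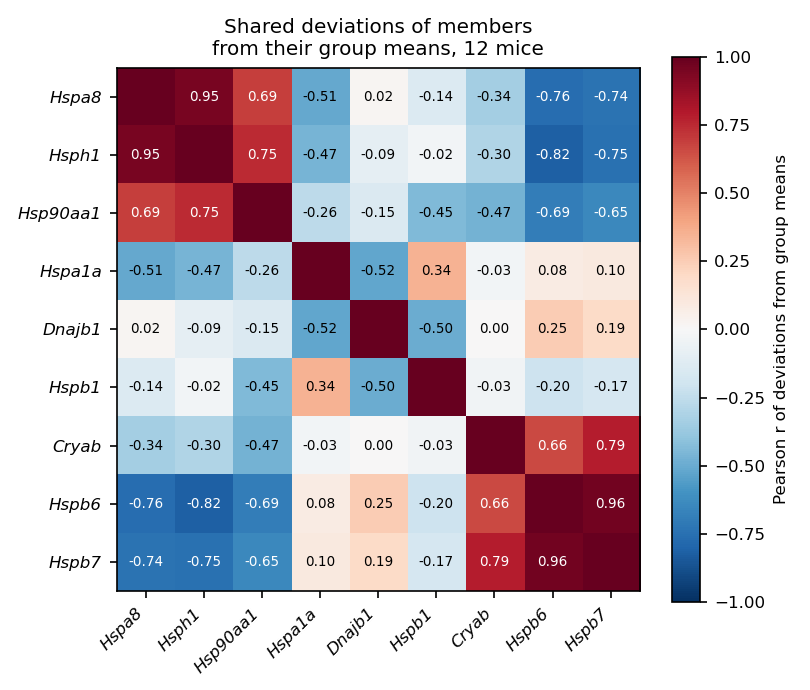
Pearson r between the 9 genes after subtraction of each group's mean (log2 scale, 12 mice), from -1 (blue) to 1 (red). Hspa8, Hsph1 and Hsp90aa1 form a positive block (0.69 to 0.95), Hspb6, Hspb7 and Cryab another (0.66 to 0.96), and Hspb6 and Hspb7 are negative against the first block.

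The genes most like each of the 7 tested chaperones were sought among the other 7240 tested genes by r over the 12 mice. Closest to Hspb7 were Lmcd1 (0.974), which encodes a LIM domain protein of muscle, and Tm4sf1 (0.971). Closest to Hspb6 were Ablim1 (0.946), an actin-binding LIM protein gene, and Fam193b (0.899). Cryab was nearest to Mtch1 (0.956), of the mitochondrial outer membrane, and Eid1 (0.940).
Hspa8 was nearest to Chordc1 (0.925), which encodes an HSP90-binding protein, and Rad17 (0.856). Hsph1 was nearest to Atg5 (0.914), of the autophagy machinery, and Haus2 (0.903), and Hsp90aa1 to Glce (0.959) and again Haus2 (0.878). Hspb1 had less close neighbours in Dusp10 (0.864) and Phc2 (0.847). These values are the highest of 7240 and carry no test.

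The other chaperone genes were read from lists of 72 further genes, all in the table and 68 of them tested. With activity 9 of the 68 rose and 1 fell, in the sense of called higher or lower, where 7.99% of all genes rose and 6.51% fell. The median difference was 0.02. The mitochondrial chaperones, which fold proteins imported into the matrix, held 4 of the 9 that rose, among 7 tested. Hspe1 (HSP10), the lid of the mitochondrial folding chamber, read 22.5 to 25.9 in the inactive mice and 28.2 to 32.4 in the active mice, with no overlap and a log2 difference of 0.30 (SE 0.0536, FDR-adjusted P-value = 0.00418, limma). Hspa9, the mitochondrial HSP70, rose by 0.30 (SE 0.0563, FDR-adjusted P-value = 0.00498, limma) and Hspd1 (HSP60), the chamber itself, by 0.23 (SE 0.0498, FDR-adjusted P-value = 0.0105, limma). Values of both overlapped between active and inactive mice, at 619.6 to 739.9 against 497 to 661 for Hspa9 and 119 to 140.0 against 102 to 129 for Hspd1.

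In the cytosol, Hspa4l, an HSP110 relative of Hsph1, had the largest difference of the 68. It read 10.4, 8.95 and 9.18 in IW, 6.96, 8.09 and 5.14 in IM, 14.0, 16.7 and 14.6 in AW, and 17.8, 15.2 and 7.69 in AM, and rose with activity by 0.74 (SE 0.167, FDR-adjusted P-value = 0.0129, limma). The third AM mouse alone of the active mice lay within the inactive range. Of 16 tested DNAJ and BAG co-chaperones 3 rose and 1 fell, among them the HSP40 gene Dnaja4 (0.37, SE 0.0920, FDR-adjusted P-value = 0.0206, limma) and, downward, Dnajb5 (-0.20, SE 0.0634, FDR-adjusted P-value = 0.0484, limma). The call of Dnaja4 was lost without the second or the third AW mouse, that of Dnajb5 without any 1 of 9 mice, and those of Hspa4l, Hspe1, Hspa9 and Hspd1 passed with any 1 mouse left out. That of Dnaja3, the fourth mitochondrial gene called, was lost in 6 of 12 omissions (the second or the third IW, IM or AW mouse). With the slow-fibre score as a covariate the calls of Hspe1 and Hspa9 remained, and those of Hspa4l, Hspd1, Dnaja3, Dnaja4 and Dnajb5 were lost, which left 2 of the 4 mitochondrial calls. The Dnajb5 call was also lost without the filter, without the trend, under quantile normalization and with the replicate number as a block. Of 13 HSP90 genes and co-chaperones 1 rose. None was called among 12 endoplasmic reticulum chaperones, 8 subunits of the chaperonin TRiC or 3 heat shock factors and regulators.

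**Figure D5:**
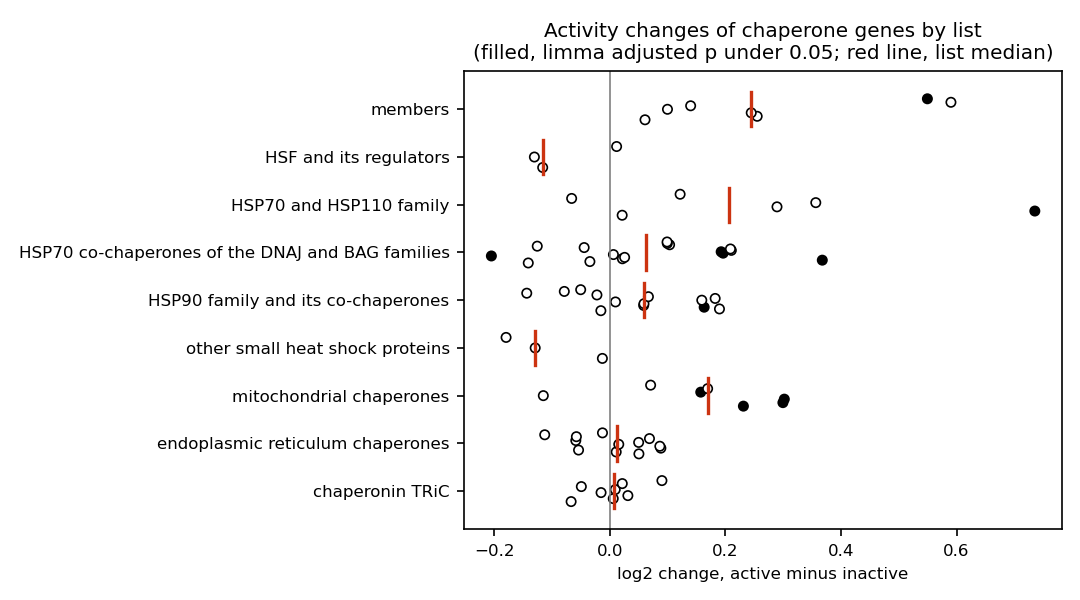
Log2 change for active minus inactive mice (horizontal axis) of the 7 tested members and of 68 other chaperone genes by list, each point 1 gene; filled points have an FDR-adjusted P-value under 0.05 in limma and red lines are list medians. The mitochondrial list holds 4 filled points of 7, while the endoplasmic reticulum and TRiC lists hold none.

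For genotype 2 of the 68 were called lower and none higher, where 2.21% of all genes were called lower. Both are HSP40 genes. Dnajb4 read 68.2 to 78.5 in the 6 wild-type mice and 54.0 to 62.2 in the 6 myostatin-reduced mice, with no overlap and a difference of -0.31 (SE 0.0506, FDR-adjusted P-value = 0.00604, limma), and 1.15% of all genes were separated in this way. Dnaja4 read 92.1 to 142 in wild-type and 72.1 to 125 in myostatin-reduced mice, with a difference of -0.49 (SE 0.0920, FDR-adjusted P-value = 0.00997, limma). Both were also lower in IM than in IW mice, Dnaja4 by -0.59 (FDR-adjusted P-value = 0.0395, limma) and Dnajb4 by -0.40 (0.0181). The genotype calls of both passed with any 1 mouse left out, but the IM-IW call of Dnajb4 was lost in 3 of 12 omissions (the first IW, the second IM or the third IM mouse). That of Dnaja4 was lost in 7 of 12 omissions, of the first or the third IW mouse, any IM mouse, or the second or the third AW mouse, and also under quantile normalization, without the trend, with the slow-fibre score and with the replicate number as a block. Dnaja4 carried called differences for both activity and genotype, in opposite directions, and with the slow-fibre score as a covariate only the genotype call remained. In the other direction, Hsp90ab1 read 1320 to 1492 in wild-type and 1515 to 1700 in myostatin-reduced mice, with no overlap. It was not called for genotype in the main test. A mean of at least 50, median of ratios scaling, quantile normalization, array weights, and omission of the first AW or second AM mouse each brought a call.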

How the data were processed

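Polyadenylated RNA of the triceps of 12 mice was sequenced by the authors (TruSeq libraries, Illumina GAIIx, single-end reads), mapped with CASAVA (version not given in the sources used here) to mm9 and counted in RefSeq exons. The deposited values are normalized read counts, a signal per gene and not raw counts, which the authors scaled to equal trimmed means and did not divide by gene length. Use of strand in the counting was not given in the sources used here.

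The value of 1 read was estimated from the steps between low values (0.077 to 0.105). A floor of 3 reads is 0.231 to 0.316 normalized reads and, like all read numbers here, covers counting error only. Whole multiples of this step made up 84.08% to 90.97% of the values under 5 but 58.28% to 63.54% of those from 20 to 50, so no count model was used.

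The test was that of limma 3.58.1 (R 4.3.3; lmFit, contrasts.fit, eBayes with a trend) on log2(value + 1), with 1 mean per group over all 12 mice. Genes with a mean of at least 10 (7247) were tested, two-sided P-values were adjusted over them after Benjamini and Hochberg, and a gene was called under 0.05. The log2 scale understates changes of low genes. P-values of correlations came from permutations of the mice. The steps were tested on simulated data. Alternatives were other pseudocounts, filters, scalings, variance models and covariates, and each mouse left out.

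The members and lists were chosen with earlier results of these data known. Named were all members in the table, at most 6 called genes of the other chaperone lists per contrast, the 2 genes most like each member, and the targeted gene. Hspb2, Hspb3, Hspb8 and Hsp90ab1 were added after their values were seen. Groups and replicate numbers came from the sample titles. Same-numbered IM and AM mice deviated together (r of 0.236, 0.171 and 0.322), other same-numbered groups did not in every pair (r from -0.530 to 0.484), and nothing in the labels says that the numbers pair mice.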

Additional observations from a re-analysis of the deposited data

Results flagged for a closer look

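Fkbp5, which encodes an immunophilin co-chaperone of HSP90 and is induced by glucocorticoids, stood out because its mice separated by genotype in opposite directions when inactive and when active, although neither genotype difference passed the test. Its normalized read count was 51.7, 45.9 and 50.6 in IW, 39.1, 45.6 and 41.1 in IM, 40.5, 49.8 and 48.6 in AW, and 58.3, 54.5 and 61.1 in AM. All 3 IM mice were below all 3 IW mice, though the lowest IW mouse (45.85) lay close to the highest IM mouse (45.56). All 3 AM mice were above all 3 AW mice. IM mice were all below IW mice in 12.7% of tested genes, and AM and AW mice were apart, in either direction, in 15.2%. The share of genes with both separations in opposite directions was not counted. IM differed from IW by -0.23 (FDR-adjusted P-value = 0.210, limma) and AM from AW by 0.32 (FDR-adjusted P-value = 0.212, limma). The interaction was 0.55 on the log2 scale (SE 0.129, FDR-adjusted P-value = 0.890, limma), so the difference between the genotype effects did not pass over all genes, of which 0% were called. AM exceeded IM by 0.46 (FDR-adjusted P-value = 0.0132, limma), where 7.84% of tested genes were called. That call was lost without the first or the third IM mouse and with the slow-fibre score as a covariate.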

How the results depend on the processing

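The activity difference of Cryab stayed called under all settings and omissions run, at 0.49 to 0.63 with 1 mouse left out and 0.37 to 0.60 otherwise. With 1 mouse left out, called members of the 7 tested numbered 1 to 2 for activity, 0 to 1 for genotype, 0 to 3 for AM-IM and 0 to 1 for IM-IW, and other chaperones called numbered 5 to 14 for activity (5 without the second IW mouse) and 2 to 5 for genotype (5 without the first AW or second AM mouse). Without the first AW mouse 2 members were called for activity, 1 for genotype (Hspb7), 3 for AM-IM and 1 for IM-IW (Hspb6); without the second AM mouse these were 1, 1, 0 and 1. AM-IM also went to 0 without the second IM mouse and to 3 without the first AM mouse. Quantile normalization gave 2 members for activity. Array weights gave 2 for activity, 1 for genotype, 3 for AM-IM and 1 for IM-IW. A mean of at least 50 gave 2 for AM-IM, and no filter gave 1 for IM-IW (Hspa1a). The slow-fibre covariate left 3 other chaperones for activity (Bag1, Hspe1 and Hspa9). Hspa1a, fitted without the filter, was called under 4 of 20 settings for genotype, 5 of 20 for AM-IM and 11 of 20 for IM-IW. No member was called for the interaction, AW-IW or AM-AW under any of them. The cause of these shifts was not tested.

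Signs turned for differences near 0. With the slow-fibre covariate they were -0.0301 (Hspb6, activity), -0.0675 (Hspb1, genotype), 0.0282 (Cryab, genotype), 0.0198 (Hspa8, interaction) and 0.0122 (Hsp90aa1, interaction). With array weights they were 0.0205 (Hsp90aa1, genotype), -0.0054 (Hspb1, genotype) and 0.0026 (Hspa8, interaction). With 1 mouse left out the ranges were -0.111 to 0.0677 (Dnajb1, activity), -0.0645 to 0.0079 (Hspa8, genotype), -0.0771 to 0.0586 (Hsp90aa1, genotype), -0.0012 to 0.12 (Hsph1, genotype), -0.0648 to 0.0600 (Hspb1, genotype), -0.0799 to 0.0650 (Hspa8, interaction) and -0.175 to 0.0839 (Hsp90aa1, interaction). With the replicate number as a block the members called were 1 for activity and 1 for AM-IM (Cryab in each) and 0 for genotype and interaction, and 9 other chaperones were called for activity. The block ended the IM-IW calls of Hspa1a and Dnaja4, the activity call of Dnajb5 and the AM-IM calls of Dnaja4 and Dnajc7, and added AM-IM calls of Bag3 and Dnaja3. Among the 9 chaperones Hspa1a was the one whose call it changed. Hspa1a rests on 14 to 56 estimated reads per mouse, which cannot be told with certainty from those of Hspa1b.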
